A study of Drosophila melanogaster with 4 samples.

Results

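A total of 289 cDNA clones of the fly, represented by 347 probes, were followed on expression arrays of dSETD3 KO and control females. They are the array identifiers that consist of the letters SD, LD or RE and a number, out of 25880 identifiers and 32152 probes on the whole array, so that 1.08% of the probes belong to them. The choice rests on the identifiers and on no measured value, though earlier results of these data were known when it was made. There were 68 SD clones with 88 probes, 95 LD clones with 114 probes and 126 RE clones with 145 probes.

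A cDNA clone is a copy of one RNA molecule kept in a bacterial plasmid, and its name carries the library from which it was picked. The SD library was made from S2 cells, a line derived by Schneider from late embryos, and the LD and RE libraries were made from embryos. Such clones served to find and map transcribed regions of the fly genome. A clone whose transcript was not matched to an annotated gene model could still be put on an array under its clone name. A probe of this kind is a short oligonucleotide that binds labelled RNA of the matching sequence, whether or not the RNA belongs to a known gene. The sequences and map positions of these probes were not used here.

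The arrays compared 5 day old virgin females lacking CG32732, the gene for dSETD3, with control females of the w[1118] strain. dSETD3 is the fly counterpart of the mammalian protein methyltransferase SETD3. The dSETD3 KO flies had the genotype w[1118];;CG32732-/-, and the study compared RNA levels to learn what the loss of the gene changes in the adult. There were 2 arrays for each genotype, each with 1 dye (Cy3).

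In the dSETD3 KO flies, CRISPR-Cas9 had replaced the first exon of CG32732 by a dsRED cassette, and the allele had been crossed back repeatedly into w[1118]. A single knock-out stock gave all these flies. The w[1118] background is thus shared by both genotypes. The flies are homozygous and lack the gene in all their cells, and the RNA is that of flies lysed in bulk. A lower signal can therefore come from fewer cells of a type or from less RNA per cell, and these cannot be told apart. The labels do not say whether the 2 arrays of a genotype came from separate groups of flies, so that p-values measure the spread between these arrays, which may be technical.

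Signals are given in the scanner software's background-corrected units. For comparisons they were put on the log2 scale and set relative to the 75th percentile of each array, a signal of 1661 and 1179 for dSETD3 KO and of 1630 and 1764 for controls. The percentile is thus lower on dSETD3 KO replicate 2 than on the other arrays, which bears on the unscaled signals given below. Both probes of CG32732 were below detection in the dSETD3 KO flies, with signals of 9.87 and 4.99 against 7810 and 7999 in controls at the first and 3.47 and 3.50 against 1090 and 1150 at the second. The yolk protein genes Yp1 and Yp3, markers of adult female fat body, were detected on all 4 arrays. The summed signal of 8 probes for vitelline membrane genes of the ovarian follicle cells (all 5 genes listed) was 312782 and 252375 on the dSETD3 KO arrays and 89192 and 121045 on the control arrays. The summed signal of 12 probes for muscle genes (all 5 listed) was 145598 and 96060 in dSETD3 KO flies and 295593 and 305456 in controls. Each of these probes was well above background on all 4 arrays. Whether these tissue differences have a part in the clone results below was not tested. Genotype follows the position number on the slide, which was 1 and 2 for the controls and 3 and 4 for dSETD3 KO. Position and genotype cannot be told apart, and whether the 4 arrays shared a slide was not examined.

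About as many clone probes were detected in the dSETD3 KO flies as in controls. A probe counts as detected if the software marked its spots as well above background. This held for 250 and 245 of the 347 clone probes on the dSETD3 KO arrays (72.05% and 70.6%) and for 250 and 256 on the control arrays (72.05% and 73.8%). The means were 71.3% ± 1.02 in dSETD3 KO flies and 72.9% ± 1.22 in controls (SD, n = 2 each, exact permutation test over the arrays, two-sided p = 0.667, where 0.333 is the smallest p that 2 against 2 arrays can give). The first dSETD3 KO array and the first control array had the same count, so the genotypes overlap. For the whole array, 64.0% and 62.8% of probes were detected in dSETD3 KO flies and 65.4% and 66.2% in controls.

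The libraries differed in the share detected. For SD clones it was 70.5% and 68.2% on the dSETD3 KO arrays and 68.2% and 70.5% on the control arrays, the same pair of values in both genotypes. For LD clones it was 78.9% and 76.3% in dSETD3 KO flies and 80.7% and 82.5% in controls. Here both dSETD3 KO arrays lay below both control arrays (exact permutation p = 0.333, two-sided, the smallest possible). For RE clones it was 67.6% on both dSETD3 KO arrays and 67.6% and 69.0% on the control arrays. For comparison, clones from head libraries (GH, RH and HL, 317 probes) were detected at 65.6% and 62.5% in dSETD3 KO flies and at 68.1% and 71.3% in controls, and clones of the testis library AT (151 probes) at 32.5% on both dSETD3 KO arrays and at 35.1% and 36.4% in controls.

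**Figure D1:**
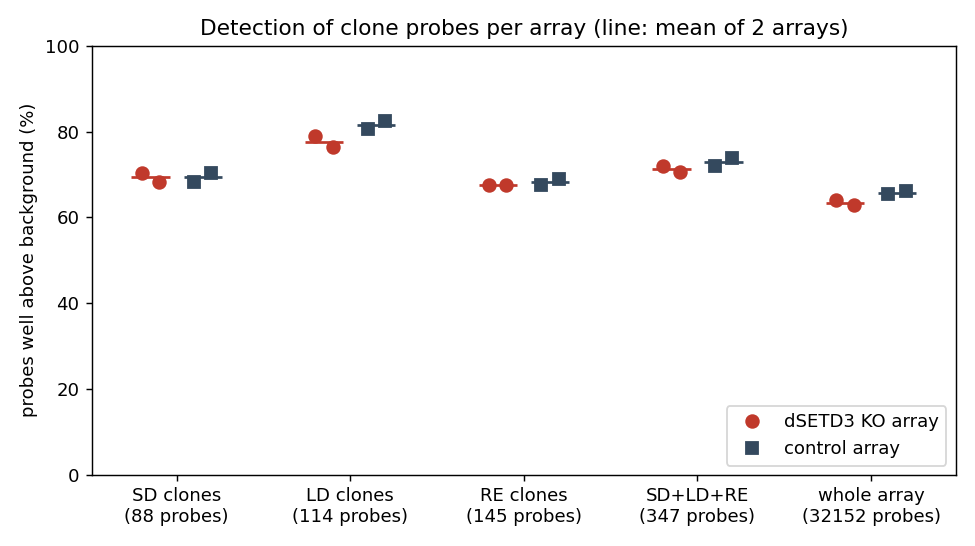
Share of probes well above background on each array (y axis, percent, from 0), for SD, LD and RE clones, for the 3 libraries together and for the whole array. Circles are the dSETD3 KO arrays, squares the control arrays and lines the means of 2 arrays. The 3 libraries together lie between 70.6% and 73.8%, and only for LD clones and the whole array are both dSETD3 KO arrays below both control arrays.

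Most clone probes were either detected throughout or not at all. On all 4 arrays, 237 probes (68.3%) were well above background, 87 probes (25.1%) were so on none, and 23 on some. Among the 23 there were 4 probes detected on both dSETD3 KO arrays and on neither control array, and 4 with the reverse pattern. On the whole array these patterns held for 0.454% and 2.09% of the 20912 probes tested, which are those detected on 2 of 2 arrays of one genotype or of both. Of the clone probes, 255 passed this filter (62 SD, 93 LD and 100 RE), from 219 clones, and 92 probes did not. The other 70 clones had no probe in the test.

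Replicate arrays were close at the clone probes tested. Pearson's r over the 255 probes (probes, unlike arrays, being no replicates) was 0.993 between the dSETD3 KO arrays and 0.997 between the control arrays. The median gap between replicates was 0.13 log2 units in dSETD3 KO flies and 0.15 in controls. The gap exceeded 1 log2 unit at 7 probes in dSETD3 KO flies and at 3 in controls. Both probes of clone SD03311 and the probe of SD07650, which carry the largest rises below, are among them.

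As a group the clones showed little shift. The log2 change (dSETD3 KO minus control) had a median of 0.05 over the 255 clone probes, with quartiles of -0.42 and 0.24, against a median of 0.02 over all probes tested. It was above 0 for 136 clone probes and below 0 for 119. The median was -0.02 for SD, 0.10 for LD and -0.02 for RE clones, against -0.34 for the 217 tested probes of head clones. For the 126 clone probes below the median brightness of all tested probes, the median change was -0.17, and for the 129 above it was 0.12. All tested probes gave -0.28 and 0.14 in the same split.

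Single clones did change, some of them by a large factor. At an adjusted p under 0.05 (limma, Benjamini-Hochberg over all 20912 probes tested), 18 clone probes of 16 clones were higher and 39 probes of 30 clones were lower in dSETD3 KO flies. This is 7.06% and 15.3% of the clone probes tested, beside 3.98% higher and 16.8% lower on the whole array. At least 2-fold, 15 clone probes (5.88%) were higher and 14 (5.49%) lower, beside 1.21% and 4.06% on the whole array, counted on measured signals. Of the 15 and of the 14, 1 each (LD38553 and LD42550) was not well above background in 1 genotype and has a bound under 2-fold. The share of falls among clones was thus near that of the array, and the share of 2-fold rises was above it. Several of these probes belong to 1 clone, so these shares are a description and were not tested against the array.

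All these calls rest on both control arrays. Without control replicate 1, or without control replicate 2, limma made no call in either direction, neither among the clone probes nor on the whole array. The loss is thus not particular to the clones. The share of rises among the called clone probes was 31.6% (19.2% for all probes), and it also depended on the scaling, with 46.4% (37.3%) after quantile normalization, 47.4% (37.4%) after cyclic loess, 50% (22.8%) after normexp correction, 42.5% (21.9%) in the deposited table and 26.7% (12.2%) with the percentile taken over detected probes.

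**Figure D2:**
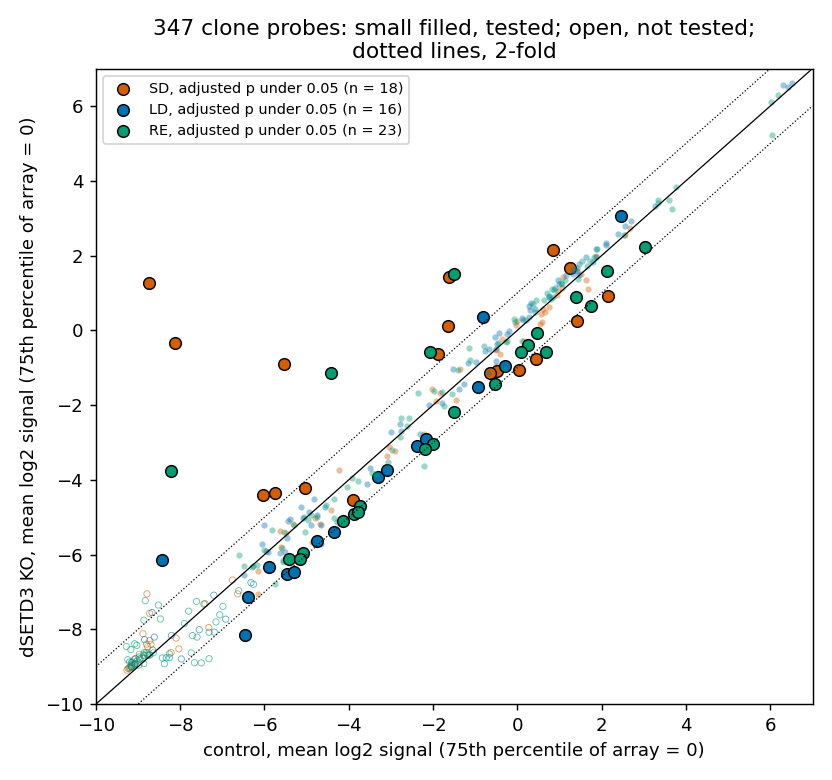
Mean log2 signal of the 347 clone probes in dSETD3 KO flies (y axis) against controls (x axis), with each array's 75th percentile at 0. Large outlined points are the 57 probes with an adjusted p under 0.05, small filled points other tested probes and open circles the 92 probes not tested, the solid line marks equality and the dotted lines 2-fold. Most points lie along the line, and a few SD and RE probes stand far above it at the upper left.

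Most of the probes that rose belonged to SD clones. Of the 18 probes, 11 belonged to 9 SD clones (17.7% of the 62 tested), 3 to LD clones (3.23%) and 4 to RE clones (4%). Their median log2 change, with probes not well above background in 1 genotype at their bound, was 1.64 for SD, 0.80 for LD and 3.09 for RE. The falls had another spread, with 7 probes of 4 SD clones (11.3%), 13 probes of 11 LD clones (14%) and 19 probes of 15 RE clones (19%). Of the head clone probes, 1.38% were higher and 28.1% lower, and of all probes tested 3.98% were higher and 16.8% lower. The shares of rises among LD and RE clones were thus near that of the whole array. The difference between libraries was not tested.

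Clone SD03311 had the largest rise. Its probe A_09_P144110 had a signal of 6971 and 1649 on the dSETD3 KO arrays and of 5.32 and 2.97 on the control arrays, where it escaped detection. The groups are far apart, but the dSETD3 KO arrays themselves differ 3.002-fold after scaling. The clone was at least 296-fold higher in dSETD3 KO flies at this probe (adjusted p = 0.012, limma). Such a bound sets the mean of the brighter genotype against the lowest signal well above background on each array of the dimmer one (between 12.2 and 13.9), or the probe's own signal if that is higher.

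The other probe of SD03311, A_09_P050826, was detected in both genotypes. Its signal was 1600 and 349 in dSETD3 KO flies and 33.7 and 39.3 in controls, a log2 change of 4.64 ± 0.59 (SE of the limma fit, adjusted p = 0.020) or 24.9-fold. Again dSETD3 KO replicate 1 was the higher array, 3.25-fold above replicate 2 after scaling, while the controls were close to each other. Both probes of this clone thus rose.

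SD07650 was high on the opposite array. Its signal was 765 and 1591 in dSETD3 KO flies and 3.78 and 9.84 in controls, again without detection there, so that it was at least 96.3-fold higher (adjusted p = 0.017, limma). After scaling, dSETD3 KO replicate 2 was 2.93-fold above replicate 1. The RE clone RE73276 was likewise not detected in controls, at 96.9 and 109 in dSETD3 KO flies against 5.15 and 6.36, at least 8.98-fold higher (adjusted p = 0.0099, limma). None of these 3 clones has a gene name in the tables used.

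Other rises started from a detected level in controls, with dSETD3 KO replicates closer to each other than at SD03311 and SD07650. RE33588 had a signal of 855 and 478 in dSETD3 KO flies and of 74.7 and 84.5 in controls, which is 3.29 ± 0.14 log2 units higher (9.75-fold, adjusted p = 0.0060, limma). SD01615 had 4244 and 3367 in dSETD3 KO flies and 526 and 582 in controls, a change of 3.05 ± 0.10 (8.28-fold, adjusted p = 0.0034, limma). RE20516 had 4580 and 3450 in dSETD3 KO flies and 563 and 631 in controls, a change of 3.01 ± 0.09 (8.08-fold, adjusted p = 0.0031, limma). In each of these 3 clones both dSETD3 KO arrays were several times above both controls, and they alone of all clone probes were still called when no filter on dim probes was used. On the whole array that fit called 38 probes higher and 26 lower.

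Smaller rises followed. SD15568 had a signal of 1287 and 1780 in dSETD3 KO flies and of 512 and 568 in controls, which is 1.77 ± 0.34 log2 units higher (adjusted p = 0.037, limma). RE36938, a clone of CG3734 on chromosome 3R, had 1000 and 886 in dSETD3 KO flies and 397 and 416 in controls, a change of 1.49 ± 0.14 (adjusted p = 0.017, limma). The replicates of RE36938 were closer to each other than those of SD15568, whose dSETD3 KO replicate 2 was the higher. SD06617 rose at both its probes, with 60.0 and 72.7 against 24.1 and 27.5 in controls (1.64) and with 60.5 and 78.5 against 30.7 and 32.1 (1.41). These probes are dim, and with normexp background correction their changes were 0.60 and 0.70 and were not called (adjusted p = 0.12 and 0.13, limma). This correction was run with an offset of 50 added to every signal, which by itself draws the changes of dim probes toward 0. The loss of such a call, here and below, therefore does not show that the change is absent. SD27051, SD07983 and LD34211 were 1.31, 1.26 and 1.19 log2 units higher, and SD04057, LD26673 and SD10607 were higher by 0.82, 0.59 and 0.42.

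**Figure D3:**
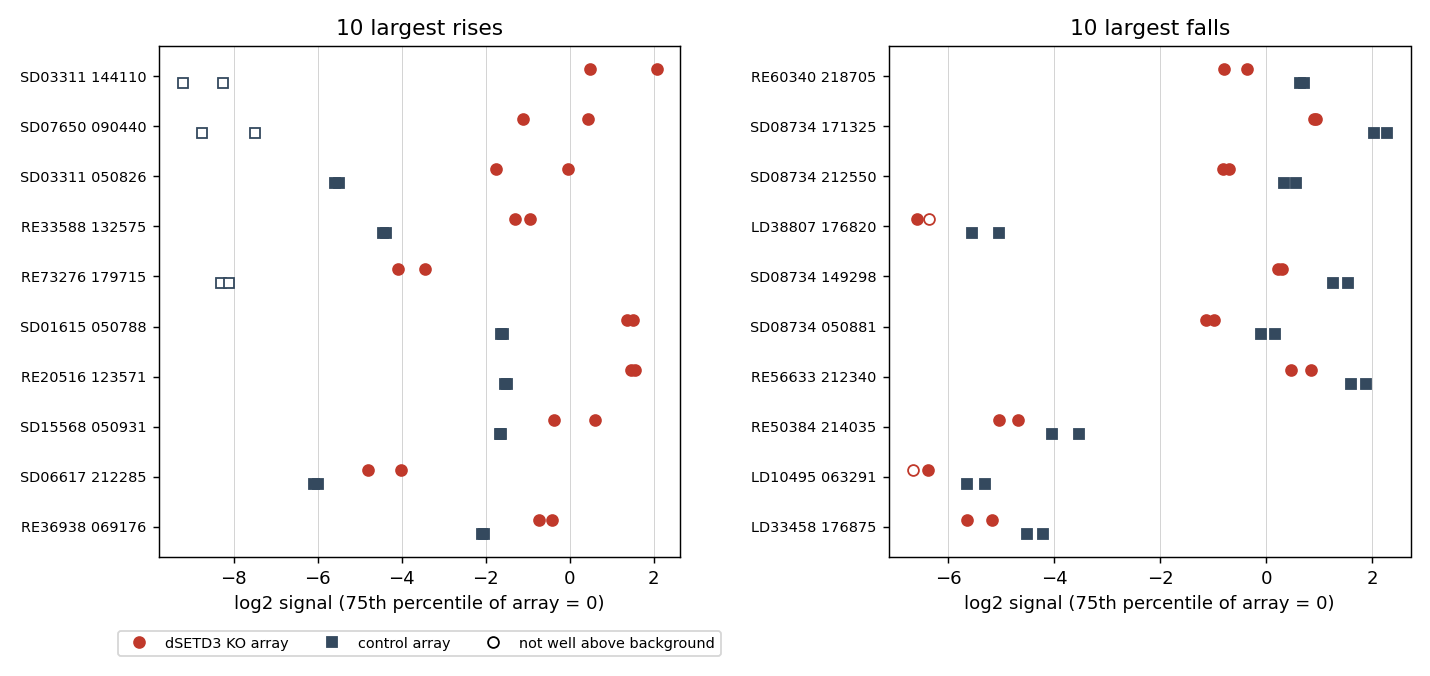
Log2 signal on each array (x axis, the array's 75th percentile at 0) for the 10 clone probes with the largest rises (left) and the 10 with the largest falls (right), ranked by the bound where a genotype was not well above background, each labelled with its clone and the end of its probe name. Red circles are dSETD3 KO arrays, dark squares control arrays and open symbols spots not well above background. The genotypes do not overlap at any of the 20 probes because this was required in choosing them, and 3 of the rises have both control arrays open.

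Among the falls, RE60340 led the probes detected on all arrays, with a signal of 964 and 920 in dSETD3 KO flies and of 2550 and 2907 in controls. Its log2 change was -1.25 ± 0.17 (adjusted p = 0.021, limma). Both dSETD3 KO arrays were well below both controls. After scaling, the dSETD3 KO arrays stood at -0.78 and -0.36 log2 units and the controls, closer to each other, at 0.65 and 0.72.

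SD08734 fell at all 4 of its probes. At A_09_P171325 the signal was 3205 and 2210 in dSETD3 KO flies and 6700 and 8553 in controls, and at A_09_P212550 it was 1020 and 669 against 2070 and 2600 in controls. At A_09_P149298 it was 2052 and 1370 in dSETD3 KO flies and 3910 and 5149 in controls, and at A_09_P050881 it was 835 and 541 against 1530 and 1977. The log2 changes were -1.23, -1.21, -1.14 and -1.09, with standard errors between 0.12 and 0.13 and adjusted p-values (limma) between 0.017 and 0.019. The probes thus gave one size of change although their signals differ. They share the same RNA samples and are no independent replicates.

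RE56633 had a signal of 2304 and 2120 in dSETD3 KO flies and of 6000 and 5365 in controls, or -1.08 ± 0.18 on the log2 scale (adjusted p = 0.029, limma). Dim probes with falls of about the same size followed, and their calls depended on the background correction or the scaling. RE50384 had 50.4 and 45.7 in dSETD3 KO flies and 99.0 and 152 in controls (-1.08 ± 0.23), LD10495 had 19.9 and 11.6 against 41.5 and 35.5 in controls (-1.06 ± 0.17), and LD33458 had 46.3 and 23.8 against 71.7 and 96.0 (-1.05 ± 0.21). With normexp correction, whose offset of 50 is as large as many of these signals, the changes were -0.47, -0.11 and -0.28. None was called (adjusted p = 0.11, 0.61 and 0.14, limma). At the LD10495 probe, dSETD3 KO replicate 2 was not well above background. Another tested probe of LD10495 and another of LD33458 changed by -1.04 and -0.85 in the main fit. Neither was called (adjusted p = 0.093 and 0.062, limma).

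Of the 4 probes detected only in controls, LD42550 and LD14555 had an adjusted p under 0.05 and RE46574 and SD09246 did not. At LD42550 the signal was 6.44 and 3.72 in dSETD3 KO flies and 16.0 and 23.3 in controls, or lower by 1.25-fold or more (limma, adjusted p = 0.019). At LD14555 it was 12.6 and 7.87 in dSETD3 KO flies and 17.9 and 22.7 in controls, or lower by 1.30-fold or more (limma, adjusted p = 0.032). With normexp correction and in the deposited table the change of LD14555 had the opposite sign (0.09 and 0.04, not called). The normexp correction adds an offset of 50, and the deposited values are spot medians without background subtraction. At so dim a probe neither can settle the sign. The control signals lie just above the detection limit, which keeps both bounds small. RE46574 had 11.7 and 14.002 in dSETD3 KO flies and 27.2 and 36.7 in controls (adjusted p = 0.074, limma). SD09246 had 13.97 and 7.84 in dSETD3 KO flies and 17.1 and 33.3 in controls (adjusted p = 0.11, limma).

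Some clones were represented by several probes, and whether the probes of a clone bind the same RNA was not examined. There were 47 such clones, of which 28 had at least 2 probes tested. In 25 of the 28 all tested probes changed in the same direction, whatever the size. The median range of the log2 change between probes of a clone was 0.21. Signal levels differed more, with a median range of 0.72 log2 units between probes of these 28 clones and a highest range of 5.72. In 7 clones at least 2 probes passed the test (SD03311, SD06617, SD08734, RE14563, RE36155, LD12764 and LD46351), and no clone had called probes in opposite directions.

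RE14563 fell at all 4 probes, by 0.51 to 0.64 log2 units. Its largest change was at A_09_P056986, with 1188 and 973 in dSETD3 KO flies and 1840 and 2227 in controls. Without dSETD3 KO replicate 1 all 4 calls were lost (adjusted p between 0.059 and 0.10, limma), and without replicate 2 that at A_09_P214765 was (adjusted p = 0.057, limma). LD46351 fell at both probes, with 185 and 143 in dSETD3 KO flies against 298 and 357 in controls (-0.72) and with 207 and 166 against 342 and 414 (-0.74). In both clones both dSETD3 KO arrays lay below both control arrays at every probe, as they did at 37.1% of all probes tested.

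In some clones the probes gave different answers. RE43210 fell at A_09_P146140, with 7301 and 5892 in dSETD3 KO flies and 12500 and 15509 in controls (-0.81 ± 0.12, adjusted p = 0.025, limma). Its other probes had log2 changes of -0.28 and -0.23 and were not called (adjusted p = 0.35 and 0.25, limma). LD42550, detected only in controls at the probe given above, had 58.8 and 46.9 in dSETD3 KO flies and 68.9 and 74.4 in controls at another probe (-0.17, adjusted p = 0.24, limma). Its last probe was below detection on every array, at signals between 2.89 and 6.21.

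**Figure D4:**
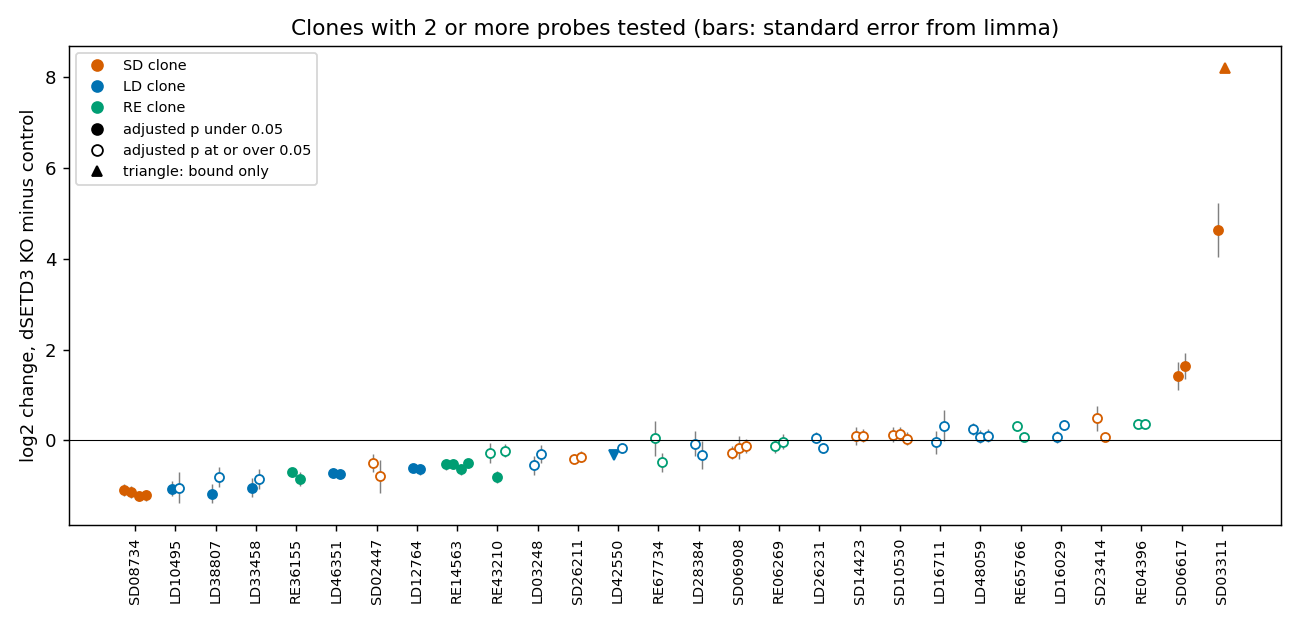
Log2 change (y axis, dSETD3 KO minus control) of every tested probe in the 28 clones with at least 2 tested probes, ordered by the mean change of the clone. Bars are standard errors from limma, filled symbols have an adjusted p under 0.05, colours give the library and triangles mark the 2 probes not well above background in 1 genotype, drawn at their bound. The 4 probes of SD08734 lie between -1.23 and -1.09, and SD03311 stands highest.

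Only a minority of the clones could be tied to a gene. Of the 289 clones, 46 carry a gene name (45 through a synonym in the RefSeq table of assembly GCF_000001215.4 and 1 through the study's probe list), for 45 genes and 55 probes, and 243 remain unnamed here. Of the 46, 39 belong to protein-coding genes. Where in its gene a clone probe lies was not examined. The median log2 change of the 39 tested probes of named genes was -0.17, with 3 probes higher (7.69%), 8 lower (20.5%) and 28 not called, beside 3.98% higher and 16.8% lower on the whole array. The other 16 probes, at signals between 2.53 and 28.2, were not tested. The grouping by role below was made after the values were seen.

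Genes of transcription and chromatin formed the largest group, with 11 genes and 12 tested probes, of which 2 were lower (16.7%, near the 16.8% of the whole array) and 0 higher (limma, median log2 change -0.18). The lower ones were grh and otp, both on chromosome 2R. grh encodes the transcription factor grainy head, which controls epidermal barrier genes, and its clone LD38807 had 17.3 and 14.4 in dSETD3 KO flies and 34.7 and 54.0 in controls at A_09_P176820 (-1.18 ± 0.21, adjusted p = 0.033, limma). dSETD3 KO replicate 2 was not well above background there, and with normexp correction (offset 50) the change was -0.15 (adjusted p = 0.50, limma). A second grh probe had 25.7 and 13.7 in dSETD3 KO flies and 33.1 and 47.7 in controls (-0.81, adjusted p = 0.067, limma), and the last was not detected on any array. otp, the homeobox gene orthopedia, had 22.4 and 18.1 in dSETD3 KO flies and 44.9 and 50.9 in controls at its clone RE58095 (-0.97 ± 0.10, adjusted p = 0.018, limma). This probe is dim as well, with signals near the detection limit (between 12.2 and 13.9) in both genotypes.

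The rest of this group was not called. CrebA, a bZIP factor that acts on genes of the secretory pathway, had 190 and 117 in dSETD3 KO flies and 204 and 254 in controls (-0.33, adjusted p = 0.12, limma). jim, a zinc finger gene, had 1565 and 846 in dSETD3 KO flies and 1650 and 2169 in controls (-0.44, adjusted p = 0.14, limma). Hmt4-20, which encodes a methyltransferase for histone H4, had 1530 and 1148 in dSETD3 KO flies and 1240 and 1251 in controls (0.37, adjusted p = 0.060, limma). The log2 changes of eya (2 probes), shn, retn, cnc and Pa1 lay between -0.20 and 0.34. The clone probe of Mef2, the myogenic transcription factor, was below detection on all arrays, with 4.57 and 2.78 in dSETD3 KO flies and 4.64 and 7.04 in controls.

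In signalling and adhesion, 7 genes had 6 tested probes, of which 2 were lower (33.3%, beside 16.8% on the whole array) and 0 higher (limma, median -0.44). Both are probes of 1 clone and belong to Sema1a on chromosome 2L, a transmembrane semaphorin that guides axons, through its clone RE36155. One had 22.5 and 18.2 in dSETD3 KO flies and 38.6 and 41.4 in controls (-0.71 ± 0.10, adjusted p = 0.025, limma), and the other 23.8 and 21.6 against 49.1 and 50.1 (-0.85 ± 0.15, adjusted p = 0.031, limma). Both genotypes are near the detection limit, and with normexp correction (offset 50) the changes were -0.07 and -0.01 and were not called. kek1, an inhibitor of the EGF receptor, had 922 and 559 in dSETD3 KO flies and 1090 and 1291 in controls (-0.45, adjusted p = 0.068, limma). caps, a cell adhesion protein with leucine-rich repeats, had 773 and 524 in dSETD3 KO flies and 928 and 1165 in controls (-0.43, adjusted p = 0.063, limma). sdk, an adhesion protein of the immunoglobulin family, and myo, which encodes the TGF-beta ligand myoglianin, had changes of -0.15 and 0.09. Neither probe of Ilp4, an insulin-like peptide gene, was detected on any array.

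Usp47, a deubiquitinating enzyme, fell at both probes of its clone LD12764 on chromosome 3L. The signals were 111 and 77.1 in dSETD3 KO flies against 159 and 183 in controls (-0.61 ± 0.09, adjusted p = 0.023, limma) and 125 and 87.7 against 174 and 224 (-0.64 ± 0.12, adjusted p = 0.035, limma). Both dSETD3 KO arrays lay below both control arrays at either probe, as at 37.1% of all probes tested. After quantile normalization the changes were -0.32 and -0.37 and were not called (adjusted p = 0.068 and 0.072, limma). bchs, the autophagy adaptor blue cheese, was below detection on all arrays at its clone SD12984.

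Among 7 genes of metabolism and mitochondria, 0 of 5 tested probes passed at an adjusted p under 0.05 (limma). This stands beside 3.98% higher and 16.8% lower on the whole array. mRpS16, a protein of the mitochondrial ribosome, had 4967 and 3228 in dSETD3 KO flies and 4721 and 4898 in controls (0.01 ± 0.09, adjusted p = 0.92, limma). Sdhaf3, an assembly factor of succinate dehydrogenase, had 4149 and 3073 in dSETD3 KO flies and 3620 and 3787 in controls (0.22, adjusted p = 0.12, limma). For mRpS16 the difference is below its standard error. The clone probes of ATPCL, the ATP citrate lyase, and sun, a subunit of the mitochondrial ATP synthase, were not detected on any array.

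Non-coding RNA genes and pseudogenes had the highest median of the groups, 0.34 over 7 tested probes of 5 genes, of which 1 was higher (14.3%, beside 3.98% on the whole array) and 0 lower (limma). The pseudogene CR14033 on chromosome 2L is represented by 2 clones. LD26673 had 13865 and 9685 in dSETD3 KO flies and 9250 and 9460 in controls (0.59 ± 0.09, adjusted p = 0.024, limma). The probes of LD26231 had log2 changes of 0.05 and -0.17 and were not called. The hairpin RNA genes, which give rise to small interfering RNAs, were not called either. hpRNA:CR32207 had 49.9 and 28.7 in dSETD3 KO flies and 20.9 and 32.8 in controls (0.81, adjusted p = 0.072, limma), and hpRNA:CR32205 had 1258 and 795 in dSETD3 KO flies and 616 and 963 in controls (0.65, adjusted p = 0.088, limma). After scaling, both dSETD3 KO arrays lay above both control arrays for each gene, while the unscaled signals overlap. The same order held at 39.7% of all probes tested.

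The remaining 12 genes have no role given here. Their 7 tested probes included 2 higher (28.6%), tun and the CG3734 probe given above, and 2 lower (28.6%). On the whole array 3.98% were higher and 16.8% lower. CG14687 had 1006 and 877 in dSETD3 KO flies and 1674 and 1942 in controls (-0.66 ± 0.13, adjusted p = 0.040, limma). CG31125 had 79.7 and 46.2 in dSETD3 KO flies and 106.96 and 121 in controls (-0.63 ± 0.13, adjusted p = 0.042, limma). Both lie on chromosome 3R. In both, the dSETD3 KO arrays lay below the control arrays, as at 37.1% of all probes tested.

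tun, on chromosome 2R, was detected at its clone only in dSETD3 KO flies. Its clone LD38553 had a signal of 18.2 and 21.9 in dSETD3 KO flies and of 3.58 and 6.86 in controls, at least 1.74-fold higher (adjusted p = 0.031, limma). A separate probe for an annotated transcript of tun had 3860 and 2710 in dSETD3 KO flies and 3174 and 3074 in controls (0.33 ± 0.10, adjusted p = 0.080, limma) and was not called. With normexp correction (offset 50) the change of LD38553 was 0.68 and was not called (adjusted p = 0.10, limma).

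**Figure D5:**
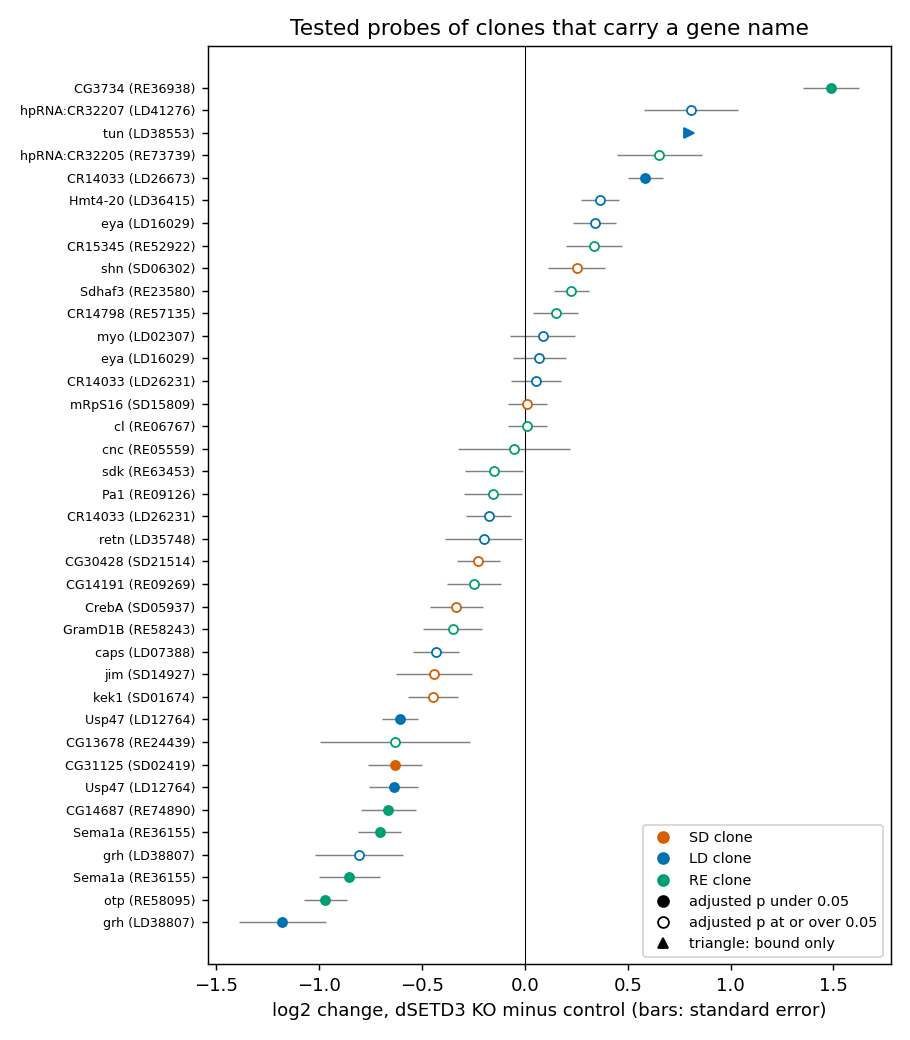
Log2 change (x axis, dSETD3 KO minus control) of 38 of the 39 tested clone probes whose clone carries a gene name, ordered from the highest at the top. Bars are standard errors from limma, the triangle is the bound for tun, colours give the library and filled symbols have an adjusted p under 0.05. The filled symbols are 3 above 0 (tun, CG3734 and CR14033) and 8 below (grh, otp, Sema1a, Usp47, CG14687 and CG31125).

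The clone probes with the strongest signal in each library were not called. LD48059 had 3 of them, of which A_09_P221060 gave 147543 and 127148 in dSETD3 KO flies and 160000 and 150468 in controls (0.10 ± 0.14, adjusted p = 0.61, limma). SD07148 had 10854 and 7897 in dSETD3 KO flies and 11000 and 10649 in controls (0.05 ± 0.10, adjusted p = 0.69, limma), and SD12734 and SD10002 had changes of 0.0012 and 0.12. RE42047 and RE74511 had 0.11 and 0.07. The other probes of LD48059 had 0.08 ± 0.14 and 0.26 ± 0.13, and apart from the last each of these changes was smaller than its standard error. RE37763 was apart from them, with 51563 and 53701 in dSETD3 KO flies and 115000 and 108441 in controls (-0.81 ± 0.22, adjusted p = 0.067, limma), and it passed the threshold after cyclic loess normalization (-1.03, adjusted p = 0.042, limma) and without dSETD3 KO replicate 2 (-1.08, adjusted p = 0.010, limma).

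A few clones were uneven between replicates without a called change. RE27547 had the widest gap, with a signal of 250 and 52.1 in dSETD3 KO flies and of 316 and 417 in controls, where the dSETD3 KO arrays differ 3.41-fold after scaling (-1.39, adjusted p = 0.16, limma). SD02447 had 46.4 and 16.4 in dSETD3 KO flies and 53.1 and 63.4 in controls (-0.80, adjusted p = 0.16, limma). LD39933 was uneven in controls, at 835 and 559 in dSETD3 KO flies and 867 and 403 in controls (0.49, adjusted p = 0.40, limma). In RE27547 and SD02447 dSETD3 KO replicate 2 was the low array, and in LD39933 control replicate 2 was.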

How the data were processed

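RNA of virgin females was labelled with Cy3 and hybridised to Agilent arrays (2 dSETD3 KO, 2 control). The authors deposited Agilent Feature Extraction 10.7 output with background-subtracted spot intensity, not normalized between arrays. Control replicate 1 holds values with at most 3 significant digits. In a further deposited table, the intensity of all 31952 probes compared matched the mean of their spots' medians within 0.01. After removal of control spots and of 45 to 73 outlier spots an array, the log2 values of all spots with one probe were averaged and set relative to the array's 75th percentile. Probes well above background (all spots) on both arrays of a genotype were tested with limma 3.58.1 in R 4.3.3, genotype as the only term, after the fit was tested on simulated data. Python 3.11.15 was used for tables and plots.

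Probes named in the text are the 10 largest rises and falls at an adjusted p under 0.05 with non-overlapping arrays (ranked by the bound where a genotype was not well above background), the 3 strongest per library, clones with at least 2 called probes and probes detected in 1 genotype. Others were named after their values were seen. The members and lists were chosen with earlier results of these data known. The nearest annotated probe was not looked up, since probe coordinates were not used here. The values of 1 named gene are not reported here. No testis marker of the list had a named probe. Alternatives changed the normalization, background correction, values, filter, test, block and replicates. The normexp correction used an offset of 50. Precision is limited by the number of arrays.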

Additional observations from a re-analysis of the deposited data

How the results depend on the processing

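The counts for clone probes were 18 higher (15 by 2-fold or more) and 39 lower (14 by 2-fold or more). Leaving out 1 array gave 0 to 20 higher (0 to 15 by 2-fold or more) and 0 to 45 lower (0 to 19 by 2-fold or more), with every 0 coming from the loss of a control array. For the called probes named by rule, adjusted p-values (limma) were then between 0.073 and 0.23. Lower calls numbered 15 with normexp correction (all 15 among the 39) and 23 in the deposited value table (all 23 among the 39). At least 2-fold lower were 7 after quantile normalization, 8 after cyclic loess, 6 with normexp correction and 6 in the deposited table. With no filter on dim probes limma gave 3 higher (3 by 2-fold or more) and 0 lower, with 105 at an unadjusted p under 0.05. The methods' t-test gave 0 in all 4 counts after adjustment and 73 at an unadjusted p under 0.05. The calls of the whole array fell as well, from 833 higher and 3510 lower in the main fit. They were 427 and 1448 with normexp correction, 692 and 2468 in the deposited table, 38 and 26 with no filter and 0 and 2 with the t-test. No call was left on the whole array either when 1 control array was left out. The cause of these shifts was not tested. All other counts under the scalings and under the filter for detection on all 4 arrays were within 1.5 times. The lowest signal well above background lay between 12.2 and 13.9, and the calls of the dim probes of LD10495, LD38807 and RE36155 were lost with normexp correction. Its offset of 50 lies above that limit and by itself draws the changes of such probes toward 0.

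The labels do not say whether arrays with the same replicate number were handled together. The correlation of replicate deviations between the genotypes (-0.21 over the tested probes) rests on 4 arrays and cannot show it. With the replicate block, 16 clone probes were higher and 26 lower, and 14 and 13 at least 2-fold so. With the crossed replicate block, added after seeing the data, there were 13 higher and 17 lower. On the whole array the replicate block gave 403 higher and 2676 lower, and the crossed block 329 and 1523.

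The median log2 change of the clones was 0.05 and lay between -0.03 and 0.09 over all alternatives. The share detected was 85.7% in dSETD3 KO flies and 86.2% in controls with the software's flag for a signal positive and significant against background.

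Of the 57 called clone probes, 1 turned sign under any of the 14 alternatives. The alternatives of test, block or filter leave the log2 change of a probe as it is and could not turn a sign. Leaving out 1 array could not do so either at probes where the arrays of the genotypes do not overlap. The count therefore bears on the scalings, the background correction and the deposited values only. The probe that turned was that of LD14555. Its change was 0.09 under normexp and 0.04 in the deposited table. The sign also turned for some named probes that were not called. For SD07148 it was -0.032 after quantile normalization, -0.079 after cyclic loess and -0.027 with the percentile over detected probes. For SD12734 it was -0.084, -0.12 and -0.078 in the same order, -0.0099 with normexp and -0.0068 in the deposited table. Cyclic loess gave -0.15 and -0.16 for 2 probes of LD48059, -0.13 for RE42047 and -0.17 for RE74511, and RE74511 was at -0.011 with the percentile over detected probes, -0.027 with normexp and -0.023 in the deposited table. RE46574 was at 0.022 with normexp. Leaving out 1 array gave -0.029 to 0.13 for SD07148, -0.048 to 0.050 for SD12734, -0.034 to 0.28 for SD10002, -0.042 to 0.24 and -0.057 to 0.22 for LD48059 and -0.027 to 0.25 for RE42047.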
